A study of Mus musculus with 12 samples.

Results

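The p53 target genes are described here as a set of 10 genes that the transcription factor p53 is known to switch on: Cdkn1a, Mdm2, Pmaip1, Bbc3, Bax, Ccng1, Zmat3, Phlda3, Trp53inp1 and Eda2r. They were chosen by name, with earlier results of these data known, and are the rows of the deposited count table that carry these symbols. All 10 were found, each on 1 gene identifier, among the 77175 genes of the table. Every member passed the filter on low counts in each comparison.

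Messenger RNA was sequenced in bulk in 12 mouse libraries, 3 in each of 4 groups. The tumor cells were B16-F10, a mouse melanoma line, carrying a lentiviral GCaMP6s calcium sensor under the EF1A promoter with puromycin selection. Cells of the OVA label carried in addition a lentiviral ovalbumin gene, a model antigen, also under the EF1A promoter, with neomycin selection. Both lines formed tumors in NOD-SCID hosts, animals without T and B cells that keep macrophages, neutrophils, endothelium and stroma, and the age of the mice is not given in the labels. All mice of both labels received CD8+ T cells of C57BL/6J-OT-I origin, whose receptor recognises an ovalbumin peptide, after activation on anti-CD3/anti-CD28 beads, so no group is free of transferred T cells. Tumors were collected 2 days after the transfer and digested with collagenase and hyaluronidase. Tumor cells were then sorted for GCaMP6s by FACS, and T cells were pulled out with CD8 beads. The groups are called B16-F10 tumor cells, OVA tumor cells, T cells from B16-F10 tumors and T cells from OVA tumors. Nothing in the labels says that the 3 libraries of a group came from separate mice, so p-values speak to the variation among libraries, possibly technical, and not among animals.

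Library totals ran from 15494683 to 33263730 counts. Levels below are CPM, each count scaled by the total of its library, and errors are the SD of 3 libraries. The cell fractions did not match their labels in full, and the values that follow touch every result on the members. The summed level of 12 melanoma markers ran from 27551 to 27633 CPM in B16-F10 tumor cells and from 11885 to 11897 CPM in OVA tumor cells. In the T cell fractions it was 304 ± 3.31 CPM at the B16-F10 label and 132 ± 4.62 CPM at the OVA label. The sum of 14 T cell markers was 1121 ± 4.64 and 1086 ± 3.08 CPM in the T cell fractions, below the sums of 12 endothelial markers (10268 ± 59.6 and 9609 ± 42.2 CPM) and 11 fibroblast markers (5508 ± 56.8 and 4971 ± 39.3 CPM) in the same libraries. B16-F10 tumor cells held 43.5 ± 1.31 CPM of endothelial, 88.9 ± 2.82 CPM of fibroblast and 16.7 ± 0.629 CPM of 14 macrophage and monocyte markers, with Cldn5 and Emcn at 0. OVA tumor cells held 4073 ± 29.9, 2128 ± 8.39 and 2903 ± 9.91 CPM of the same lists, none of whose genes was at 0. The part of these other cells in the members' values was not tested. In bulk samples, fewer cells of a type and less RNA per cell cannot be told apart.

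As background, p53 is held at a low level in unstressed cells by the ubiquitin ligase Mdm2, and DNA damage or other stress frees it to bind DNA as a tetramer. Its targets arrest the cell cycle, start mitochondrial cell death, repair or quench damage, and restrain p53 itself through a feedback loop. Several of these genes also respond to other transcription factors, so their mRNA level alone is not a measure of p53 activity.

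The p53 protein binds a pair of 10-base half-sites, and the promoters of 3 members held such a pair near a start of transcription. Promoter windows of 300 bases, 250 before to 50 after the start, were taken from RefSeq on build GRCm38.p6, which differs from the GRCm39 build of the counts. They were available for 7 of the 10 members. Both strands were searched for the p53 half-site consensus. A pair could hold up to 1 mismatch and a spacer of up to 13 bases. Cdkn1a, Ccng1 and Bax are shown because they were the members with a pair. For each member the pair with the shortest spacer is shown. Capitals mark the half-sites and lower case marks the spacer and flanks, 5′ to 3′ on the strand of the gene.
Cdkn1a, chr17:29090928-29090947 (+): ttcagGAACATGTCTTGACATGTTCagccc
Ccng1, chr11:40755462-40755481 (-): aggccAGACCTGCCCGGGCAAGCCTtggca
Bax, chr7:45467090-45467110 (-): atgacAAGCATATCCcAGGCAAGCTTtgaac

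The Cdkn1a pair shown had no spacer, began 51 bases before the upstream of its 2 starts and carried 1 mismatch, in its second half-site. A further half-site, GGACTAGCTT, lay 12 bases ahead of it and formed with its first half-site a pair without mismatch, which 1 of 7 members and 0.074% of genes held. This window is printed whole because it held both pairs, with all 3 half-sites in capitals.
Cdkn1a, chr17:29090729-29091028 (+): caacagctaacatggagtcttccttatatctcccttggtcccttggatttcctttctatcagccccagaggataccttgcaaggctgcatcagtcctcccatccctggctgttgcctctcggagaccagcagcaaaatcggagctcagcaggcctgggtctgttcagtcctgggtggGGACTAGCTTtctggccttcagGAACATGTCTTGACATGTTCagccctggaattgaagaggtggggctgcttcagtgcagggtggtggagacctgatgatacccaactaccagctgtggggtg
The window of the other Cdkn1a start, 2790 bases downstream, held no half-site. In Ccng1 the pair began 195 bases before the start with no spacer, and in Bax it began 212 bases before the start with a spacer of 1 base; each had 1 mismatch in its first half-site. The Mdm2 window held a single half-site, GAACTTGCCT, and the windows of Phlda3, Bbc3 and Eda2r held none. A pair was present in 3 of 7 members against 1.24% of 27025 genes, and a pair without spacer in 2 of 7 against 0.107%. A single half-site was present in 4 of 7 members against 9.55% of genes. A match is a description of these letters only.

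The first question was how the members differed between the labels within each cell fraction. In T cells, 9 of 10 members were higher at the OVA label and none was lower by edgeR's quasi-likelihood test, where 46.1% of 16536 genes were called, 23.7% as higher and 22.4% as lower. Scaling to T cell markers, or using library totals alone, left 7 members called higher and 1 lower, without Bbc3 and Bax among the higher ones. The largest differences were in Eda2r, a receptor of the TNF receptor family, Pmaip1, which encodes the cell death protein NOXA, and Trp53inp1, a stress-induced p53 cofactor. In tumor cells the members split, with 4 called higher (Pmaip1, Eda2r, Bbc3 and Cdkn1a) and 4 called lower (Trp53inp1, Ccng1, Phlda3 and Zmat3) at the OVA label, where 79.4% of 17418 genes were called, 42% as higher and 37.4% as lower. Pmaip1, with 9 counts in B16-F10 tumor cells, passed the filter only through the OVA tumor cells, so only a higher call was possible for it. Scaling tumor libraries to the 12 melanoma markers instead put all 10 members higher, along with 15555 of the 16126 genes called. The CPM of the libraries of the 2 labels did not overlap in any of the 10 members in either fraction, against 54.5% of genes in T cells, where Phlda3 was the 1 member below, and 82.6% in tumor cells, where 4 members were above and 6 below. The members' median log2 difference was 0.52 in T cells against -0.01 over all genes tested, and -0.04 in tumor cells against 0.04.

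**Figure D1:**
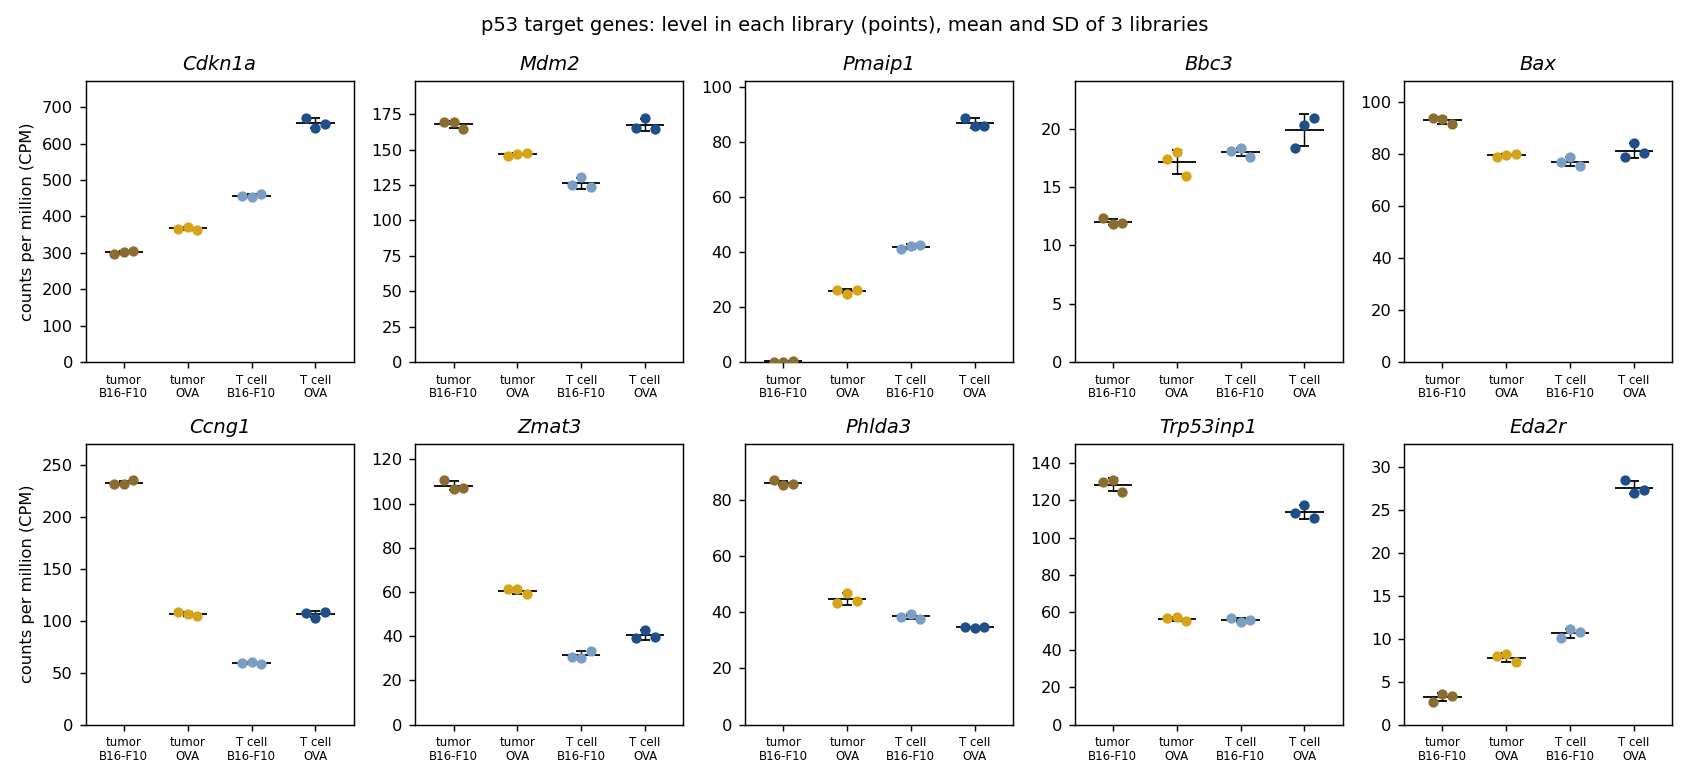
Level of each p53 target gene in CPM on a linear axis from 0, one panel a gene, for the 4 groups; points are the 3 libraries of a group, with their mean and bars of 1 SD. Cdkn1a, Pmaip1, Bbc3 and Eda2r have their highest mean in T cells from OVA tumors and their lowest in B16-F10 tumor cells, while the other members peak in B16-F10 tumor cells on this scale of library totals, or, for Mdm2, stand level there and in T cells from OVA tumors.

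Cdkn1a and Ccng1 act on the cell cycle. Cdkn1a encodes p21, the inhibitor of cyclin-dependent kinases that carries out p53-driven arrest. It measured 296, 303 and 305 CPM in B16-F10 tumor cells and 365, 372 and 363 CPM in OVA tumor cells. T cells held 457, 454 and 462 CPM at the B16-F10 label and 672, 643 and 654 CPM at the OVA label. No libraries of different groups overlapped, and all T cell libraries were above all tumor cell libraries. The OVA label went with a log2 difference of 0.58 (SE 0.0163, edgeR adjusted p = 5.56e-21) in T cells. In tumor cells it was 0.45 (SE 0.0169, edgeR adjusted p = 4.49e-17), and 1.55 when scaled to melanoma markers.

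Ccng1 encodes cyclin G1, which recruits a phosphatase that acts on Mdm2. Its tumor cell levels were 232, 232 and 235 CPM at the B16-F10 label and 109, 106 and 104 CPM at the OVA label. In T cells it ran the other way, from 59.6, 59.8 and 58.1 CPM at the B16-F10 label to 107, 103 and 109 CPM at the OVA label. The libraries of OVA tumor cells and of T cells from OVA tumors overlapped, between 103 and 109 CPM, while the other 2 groups stood apart from them. The T cell difference was 0.90 on the log2 scale (SE 0.0315, edgeR adjusted p = 6.75e-19). The tumor cell difference was -0.96 (SE 0.0208, edgeR adjusted p = 9.43e-22), which became 0.14 when scaled to melanoma markers.

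Mdm2, the ubiquitin ligase that closes the feedback loop on p53, moved little between groups, with a ratio of 1.33 between the highest and the lowest mean. Its levels were 169, 169 and 165 CPM in B16-F10 tumor cells and 146, 147 and 148 CPM in OVA tumor cells. In T cells they were 125, 131 and 123 CPM at the B16-F10 label and 166, 173 and 164 CPM at the OVA label. The T cell groups did not overlap and the OVA label was higher by 0.46 (SE 0.0254, edgeR adjusted p = 1.72e-14). The tumor cell groups did not overlap in CPM either, but after TMM scaling, which corrects library totals for composition, the difference was -0.03 (SE 0.0205) and was not called (edgeR adjusted p = 0.211). It was -0.20 on library totals alone and 1.07 when scaled to melanoma markers, both called.

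Pmaip1, Bbc3 and Bax belong to the mitochondrial death pathway. Pmaip1 (NOXA) is a BH3-only protein, a class that triggers cell death by blocking survival proteins of the BCL2 family. It was near absent from B16-F10 tumor cells, with 3, 2 and 4 counts, or 0.141, 0.0862 and 0.211 CPM. OVA tumor cells held 26.1, 24.8 and 26.3 CPM. T cells held 40.9, 42.0 and 42.7 CPM at the B16-F10 label and 88.8, 85.6 and 85.9 CPM at the OVA label. The 4 groups were apart in every library. From 9 counts against 1988, the tumor cell ratio was 182, with a 95% Clopper-Pearson interval of 95.8 to 399 that covers counting error only. The edgeR adjusted p was 1.43e-22 in tumor cells. In T cells the difference was 1.11 (SE 0.0354, edgeR adjusted p = 9.38e-20).

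Bbc3 encodes PUMA, another BH3-only protein. It measured 12.3, 11.8 and 11.9 CPM in B16-F10 tumor cells and 17.4, 18.0 and 15.97 CPM in OVA tumor cells. The T cell fractions held 18.1, 18.3 and 17.6 CPM at the B16-F10 label and 18.3, 20.3 and 20.95 CPM at the OVA label. The B16-F10 tumor cell libraries stood below all others. In tumor cells the OVA label was higher by 0.67 (SE 0.0672, edgeR adjusted p = 3.65e-09), and by 1.77 when scaled to melanoma markers. The T cell difference of 0.19 (SE 0.0647, edgeR adjusted p = 0.0155) was near the threshold. Without replicate 3 of the T cells from B16-F10 tumors its adjusted p was 0.0515, with DESeq2 it was 0.0863, on library totals alone 0.0835, without replicate 3 of the T cells from OVA tumors it was 0.0924, and scaled to T cell markers the difference was -0.00046 (adjusted p = 0.996).

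Bax, the effector that opens the outer mitochondrial membrane, was the most even member, with a ratio of 1.21 between the highest and the lowest mean. Tumor cells held 93.8, 93.3 and 91.2 CPM at the B16-F10 label and 78.7, 79.5 and 79.8 CPM at the OVA label. T cells held 77.0, 78.5 and 75.3 CPM at the B16-F10 label and 78.6, 84.2 and 80.3 CPM at the OVA label. B16-F10 tumor cells were the highest, and the other 3 groups lay close together. The tumor cell difference of -0.06 (SE 0.0270) was not called (edgeR adjusted p = 0.0507), and it was 1.04 when scaled to melanoma markers. The T cell difference was 0.13 (SE 0.0326, edgeR adjusted p = 0.00228) but 0.07 (adjusted p = 0.0827) on library totals alone and -0.07 (adjusted p = 0.0719) when scaled to T cell markers.

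The remaining members act in damage control, growth signalling and death receptor signalling. Trp53inp1 encodes a stress-induced protein of the nucleus and of autophagy that assists p53. It measured 130, 131 and 124 CPM in B16-F10 tumor cells and 57.2, 57.5 and 55.4 CPM in OVA tumor cells. T cells showed the opposite order, with 56.9, 54.6 and 56.1 CPM at the B16-F10 label and 113, 118 and 110 CPM at the OVA label. The low group of each fraction lay at the same level, and so the libraries of OVA tumor cells and T cells from B16-F10 tumors overlapped. The T cell difference was 1.08 (SE 0.0325, edgeR adjusted p = 2.63e-20). The tumor cell difference was -1.01 (SE 0.0292, edgeR adjusted p = 2.69e-19), and 0.09 when scaled to melanoma markers.

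Zmat3 encodes an RNA-binding zinc finger protein. Its levels were 111, 107 and 107 CPM in B16-F10 tumor cells and 61.3, 61.2 and 59.1 CPM in OVA tumor cells, and the T cell fractions were lower still. T cells held 30.6, 30.2 and 33.4 CPM at the B16-F10 label and 39.3, 42.9 and 39.4 CPM at the OVA label. All 4 groups were apart. The difference was 0.42 in T cells (SE 0.0514, edgeR adjusted p = 1.16e-07) and -0.67 in tumor cells (SE 0.0288, edgeR adjusted p = 6.84e-16), the latter 0.43 when scaled to melanoma markers.

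Phlda3 encodes a pleckstrin homology protein that competes with the kinase Akt at the membrane. It was the member that did not follow the others in T cells, with 38.3, 39.4 and 37.7 CPM at the B16-F10 label and 34.6, 34.5 and 34.9 CPM at the OVA label. These libraries did not overlap, and the TMM-scaled difference of -0.09 (SE 0.0454) was not called (edgeR adjusted p = 0.0936). On library totals alone it was -0.15 and scaled to T cell markers -0.29, both called. Tumor cells held 86.9, 85.3 and 85.5 CPM at the B16-F10 label and 43.2, 47.0 and 44.0 CPM at the OVA label. That difference was -0.78 (SE 0.0344, edgeR adjusted p = 1.01e-15), and 0.32 when scaled to melanoma markers.

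Eda2r encodes the receptor for the A2 form of ectodysplasin. Its levels climbed from 2.63, 3.58 and 3.32 CPM in B16-F10 tumor cells to 7.97, 8.16 and 7.24 CPM in OVA tumor cells. T cells held 10.1, 11.1 and 10.7 CPM at the B16-F10 label and 28.4, 27.0 and 27.3 CPM at the OVA label. No libraries of different groups overlapped. The OVA label was higher by 1.44 in T cells (SE 0.0645, edgeR adjusted p = 1.97e-16) and by 1.46 in tumor cells (SE 0.121, edgeR adjusted p = 1.46e-10), the latter 2.55 when scaled to melanoma markers.

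**Figure D2:**
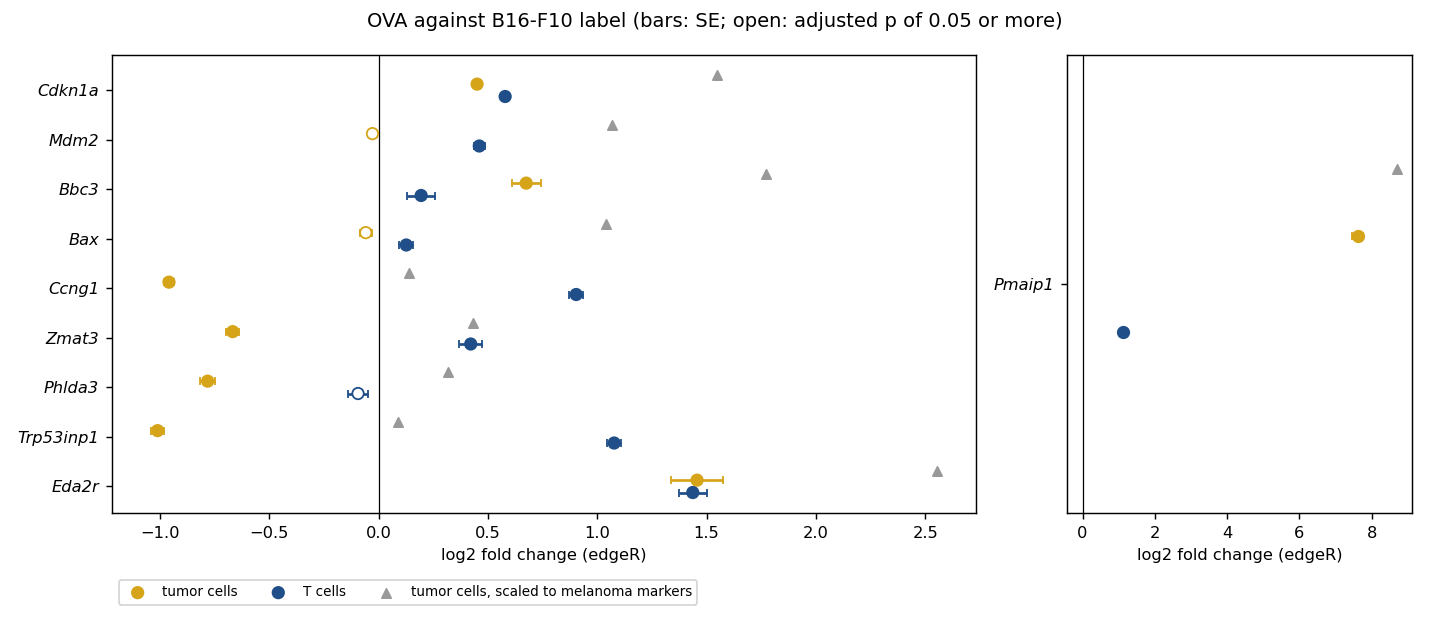
Log2 difference between the OVA and the B16-F10 label for each member, in tumor cells and in T cells, with bars of 1 SE from edgeR after TMM scaling, open symbols where the difference was not called and a separate axis for Pmaip1; grey triangles give the tumor cell value when libraries are scaled to melanoma markers. Trp53inp1, Ccng1, Phlda3 and Zmat3, all called, and Mdm2 and Bax, not called, lie below 0 in tumor cells by TMM scaling. All of these lie above 0 by the melanoma marker scaling. In T cells Phlda3 alone lies below 0.

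Scaling decided the direction of several members, and its size is given once here. The melanoma markers differed by a median of -1.10 on the log2 scale between the tumor cell groups after TMM scaling. They ran from -2.09 to 0.66. After scaling to their median they still ran from -0.99 (Slc24a5) to 1.76 (Oca2), with 6 called higher and 6 lower. The scaled values of Trp53inp1, Ccng1, Phlda3, Zmat3, Bax, Mdm2 and Cdkn1a lay inside that spread. This scaling moved the median of all genes from 0.04 to 1.14 and the share of calls that were higher from 52.9% to 96.5%. Library totals alone gave 44.1% in tumor cells, with 4 members higher and 6 lower. In T cells the T cell markers differed by a median of 0.19 and ran from -0.71 to 1.00. Scaling to them moved the median of all genes to -0.20 and the share of higher calls from 51.3% to 18.3%, with 7 members higher and 1 lower. Library totals alone gave 38.7% in T cells. Pmaip1, Eda2r and Cdkn1a were called higher at the OVA label in both fractions under each scaling that was run. The sum of 4 CD4 and regulatory T cell markers went from 254 ± 0.902 CPM in T cells from B16-F10 tumors to 643 ± 3.29 CPM in T cells from OVA tumors. Within it Il2ra, which encodes a chain of the interleukin 2 receptor, went from 81.2 ± 0.901 to 347 ± 3.68 CPM and Ctla4, an inhibitory receptor, from 155 ± 0.605 to 282 ± 0.756 CPM between the labels, while Cd4 and Foxp3 were at 14.5 and 3.68 CPM and then 11.9 and 1.87 CPM. The part of a changed T cell state in the members' values was not tested.

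The second question was whether the OVA label went with the same change in both fractions. The difference of the differences, T cells minus tumor cells, was called in 9 of 10 members in a fit over all 12 libraries, 7 of them higher and 2 lower, where 69% of 18562 genes were called, 27.7% as higher and 41.3% as lower. It was 2.09 for Trp53inp1 (SE 0.0440, edgeR adjusted p = 6.23e-24) and 1.86 for Ccng1 (SE 0.0366, edgeR adjusted p = 1.34e-24). By TMM scaling these 2 genes and Zmat3 were called higher in T cells and lower in tumor cells at the OVA label, though all 3 were higher in tumor cells when scaled to melanoma markers. The Trp53inp1 and Ccng1 differences stayed above 0 with tumor libraries scaled to melanoma markers and T cell libraries to T cell markers, at 0.80 and 0.57. Pmaip1 (-6.50, SE 0.173) and Bbc3 (-0.48, SE 0.0933) were below 0 under both scalings. Zmat3 (1.09), Phlda3 (0.68), Mdm2 (0.49), Bax (0.18) and Cdkn1a (0.13) were above 0 by TMM and below 0 by the marker scaling. For Eda2r the difference was -0.02 (SE 0.126, edgeR adjusted p = 0.898) by TMM and -1.31 by the marker scaling.

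The third question was how the members differed between the fractions within a label. These comparisons use the same libraries as those above, so their values are set side by side and not counted as further support. At the B16-F10 label, 9 of 10 members were called, 4 higher in T cells and 5 lower, where 87.7% of 17099 genes were called, 45.4% as higher and 42.3% as lower. Pmaip1 passed the filter in that comparison only through the T cells, so only a higher call was possible for it. At the OVA label all 10 were called, 8 higher in T cells and 2 lower, where 79.2% of 17947 genes were called, 38.2% as higher and 41.1% as lower. No member's libraries overlapped in CPM at the B16-F10 label, against 88.8% of genes without overlap. At the OVA label those of Bax and Ccng1 overlapped and the other 8 members' did not, against 80.3%. On library totals alone neither was called there, at 0.03 and 0.00048.

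Cdkn1a was higher in T cells by 0.89 (SE 0.0187, edgeR adjusted p = 9.55e-26) at the B16-F10 label and by 0.97 (SE 0.0159, edgeR adjusted p = 1.09e-24) at the OVA label. Eda2r was higher by 2.02 (SE 0.123) and 1.95 (SE 0.0638) in the same order. The Pmaip1 ratio was 295 at the B16-F10 label, with a 95% Clopper-Pearson interval of 155 to 645, and its log2 difference was 1.87 (SE 0.0370) at the OVA label. Bbc3, at 0.87 and 0.34, was also higher in T cells at both labels. Zmat3 (-1.50 and -0.46) and Phlda3 (-0.87 and -0.23) were lower in T cells at both labels. Trp53inp1 was lower by TMM scaling at the B16-F10 label, at -0.91 (SE 0.0321), and higher at the OVA label, at 1.13 (SE 0.0303). Ccng1 went from -1.69 (SE 0.0265) to 0.13 (SE 0.0268) and Mdm2 from -0.12 (SE 0.0260) to 0.32 (SE 0.0215), all called. The calls of Mdm2 at the B16-F10 label (adjusted p = 0.0860 with DESeq2) and of Ccng1 at the OVA label (edgeR adjusted p = 0.0513 without the filter) were lost under those settings. Bax was at 0.02 (edgeR adjusted p = 0.638) at the B16-F10 label and -0.27, called lower, on library totals alone. With RLE factors, another scaling, it was at 0.0752 and called higher (edgeR adjusted p = 0.023).

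**Figure D3:**
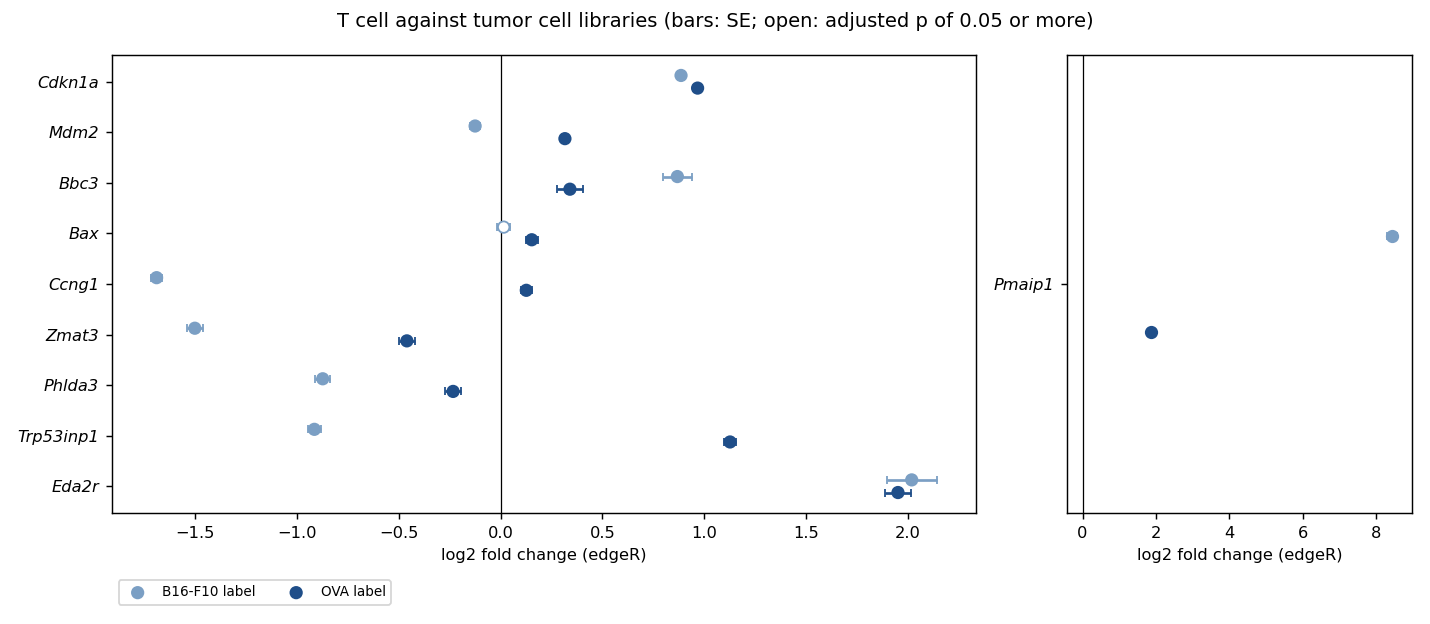
Log2 difference between T cells and tumor cells for each member at the B16-F10 label and at the OVA label, with bars of 1 SE from edgeR after TMM scaling, open symbols where the difference was not called and a separate axis for Pmaip1. Pmaip1, Eda2r, Cdkn1a and Bbc3 lie above 0 at both labels, Zmat3 and Phlda3 below 0 at both, and Trp53inp1, Ccng1 and Mdm2 cross from below to above 0.

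OVA tumor cells lay between B16-F10 tumor cells and both T cell groups, with no overlap of libraries, in 5 of 10 members (Cdkn1a, Pmaip1, Zmat3, Phlda3 and Eda2r) against 46.4% of 18562 genes, which was counted with the values in view. Cdkn1a, Pmaip1 and Eda2r rose from B16-F10 tumor cells through OVA tumor cells to the T cell groups, while Zmat3 and Phlda3 fell. Endothelial and fibroblast markers rose, at the sums given above, and T cell markers too, with 4.72 ± 0.311 and 154 ± 4.18 CPM in the tumor cell fractions. Melanoma markers fell, at the sums given above. Macrophage and monocyte markers were highest in OVA tumor cells, at 2903 CPM against 957 and 964 CPM in the T cell fractions, and so were neutrophil markers. The part of these cell types in the members' order was not tested. In Trp53inp1 and Ccng1 the OVA tumor cells did not lie between: they were level with T cells of one label or the other.

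Levels can be compared between genes only per length of transcript. With exon lengths from GENCODE M21 (GRCm38), Cdkn1a was the highest member in each group, from 84.9 CPM per kilobase in B16-F10 tumor cells to 185 in T cells from OVA tumors. Bax held 58.9 and 51.4 CPM per kilobase in those groups, and Ccng1 66.3 and 30.3. Pmaip1 went from the lowest member, at 0.0535, to 31.8 CPM per kilobase, close to Mdm2 at 32.97 in T cells from OVA tumors. Eda2r was low throughout, between 0.539 and 4.68 CPM per kilobase. The exons of Cdkn1a share 273 of 3553 bases with an antisense transcript, and the library kit did not mark strand. Those of Bax share 192 of 1576 bases with a transcript on the same strand, which a strand mark would not separate. The counts of both genes carry that uncertainty.

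The rest of the p53 pathway was read from lists of other genes. Trp53 itself, the gene for p53, measured 135 ± 1.53 and 154 ± 1.93 CPM in the tumor cells of the B16-F10 and the OVA label, and 181 ± 2.73 and 176 ± 3.07 CPM in T cells. Its tumor cell difference was 0.35 (SE 0.0208, edgeR adjusted p = 2.95e-13), and its T cell difference of 0.02 was not called. Trp53 overlaps the antisense gene Wrap53, so these counts are uncertain. Of 13 tested genes in the list of p53 and its regulators, 4 were called higher and 8 lower in tumor cells at the OVA label. Over all genes tested there, 42% were called higher and 37.4% lower. Cdkn2a and Trp63, among the higher ones, had 0 counts in B16-F10 tumor cells, so for them only a higher call was possible. Among the lower ones was Atm, a kinase that senses DNA breaks, at -0.58, and all 13 were higher when scaled to melanoma markers. In T cells 5 of 12 were called higher and none lower, against 23.7% and 22.4% of all genes tested. Scaled to T cell markers, none was higher and 6 were lower. Mdm4, a partner of Mdm2 that inhibits p53, was highest in B16-F10 tumor cells, at 124 CPM, and lowest in T cells from B16-F10 tumors, at 80.0 CPM. Cdkn2a, whose ARF product inhibits Mdm2, had no counts in B16-F10 tumor cells and 46 counts in OVA tumor cells. That is at least 12.7-fold higher, taking 3 counts for the whole group as the floor. OVA tumor cells held 0.592 ± 0.123 CPM of Cdkn2a. T cells held more, 3.45 ± 0.541 CPM at the B16-F10 label and 3.68 ± 0.143 CPM at the OVA label. Whether other cells in the OVA tumor cell fraction carried these counts was not tested.

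Among 38 other p53 targets, 17 were called higher and 19 lower in tumor cells at the OVA label, with a median of -0.07. The shares over all genes tested were 42% and 37.4%. All 38 were higher when tumor libraries were scaled to melanoma markers. Gdf15, a secreted stress cytokine, went from 1.08 ± 0.482 to 54.1 ± 2.50 CPM there. Fas, the death receptor, had 6 counts against 729, a ratio of 100 with a 95% Clopper-Pearson interval of 45.8 to 274. Trp53i11 had 2 counts against 12563. Fas and Trp53i11 passed the filter only through the OVA tumor cells, so only a higher call was possible. In T cells from B16-F10 and OVA tumors, Fas was at 12.1 and 19.5 CPM, Gdf15 at 41.1 and 36.7 CPM and Trp53i11 at 451 and 387 CPM. The part of other cell types in these tumor cell differences was not tested. The repair genes Ercc5 and Xpc were called lower in tumor cells by TMM scaling, at -0.95 and -0.91, and higher when scaled to melanoma markers. In T cells 12 of the 38 were called higher and 12 lower, against 23.7% and 22.4% of all genes tested. Scaled to T cell markers, 9 were higher and 19 lower. Perp, a membrane protein of desmosomes and cell death, went from 2.97 ± 0.252 to 21.7 ± 0.739 CPM in T cells, a difference of 2.91 (SE 0.0939, edgeR adjusted p = 1.17e-19). Fas was higher in T cells by 0.76 (SE 0.0767). Plk2, a polo-like kinase, went the other way, from 612 ± 11.7 to 380 ± 5.10 CPM, and Ddb2, a repair factor for ultraviolet damage, was at -0.76 (SE 0.136).

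Cell cycle genes that are known to be repressed through p21 formed a list of 16 tested genes. Of these, 12 were lower and none higher in T cells at the OVA label, with a median of -0.30. Over all genes tested there, 22.4% were lower and 23.7% higher. In tumor cells 12 were lower and 1 (Cenpa) higher, with a median of -0.27, against 37.4% and 42% of all genes. However, all 16 were higher when tumor libraries were scaled to melanoma markers. Mki67, a marker of dividing cells, measured 159 CPM in T cells from B16-F10 tumors and 99.1 CPM in T cells from OVA tumors, a difference of -0.62 (SE 0.0260, edgeR adjusted p = 4.09e-17). Cdk1, the kinase that drives mitosis, measured 71.6 and 54.3 CPM there, a difference of -0.35. In T cells against tumor cells, 12 of these 16 genes were lower and 1 higher at the B16-F10 label, against 42.3% and 45.4% of all genes. At the OVA label 15 were lower and 1 higher, against 41.1% and 38.2%. Of 5 other CDK inhibitors, 1 was called higher and 3 lower in T cells at the OVA label, against 23.7% and 22.4% of all genes. Cdkn2b was at 0.75 and Cdkn1b at -0.37. In tumor cells all 5 were called higher, against 42% of all genes, although on library totals alone Cdkn2c was below 0 and not called. Cdkn2b and Cdkn1c had 0 and 1 counts in B16-F10 tumor cells and passed the filter only through the OVA tumor cells. For them a higher call was the only one possible, so the share is not a like comparison.

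**Figure D4:**
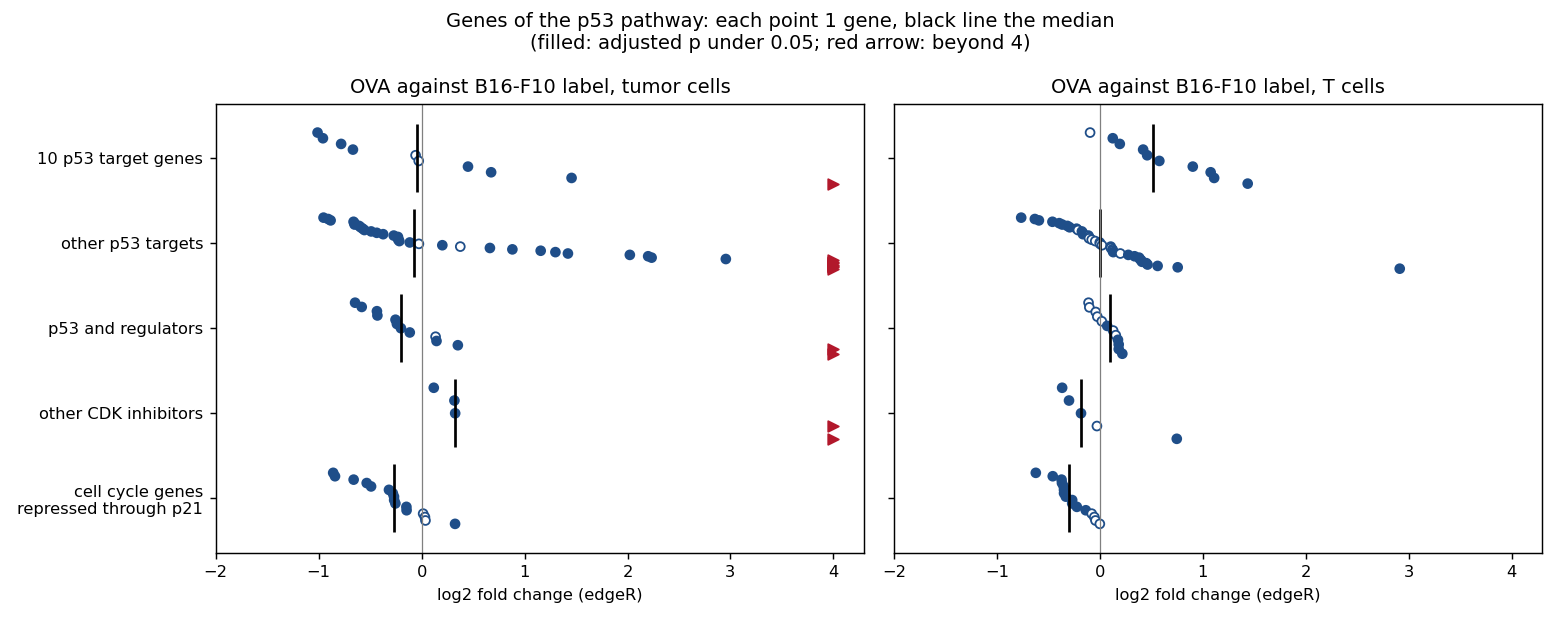
Log2 difference between the OVA and the B16-F10 label, by edgeR after TMM scaling, for each gene of the member set and of 4 lists (p53 and its regulators, other p53 targets, other CDK inhibitors and cell cycle genes repressed through p21), in tumor cells and in T cells; points are genes, open where not called, lines are list medians and red arrows are genes beyond 4. In T cells the member set has a median of 0.52 and the cell cycle list one of -0.30; in tumor cells all genes of the 4 lists turn higher when libraries are scaled to melanoma markers.

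Genes most like a member were taken as those with the smallest root mean square distance between group means of log2(CPM + 1), each centred, over the 4 groups and among 10844 genes. Pnpla2 (distance 0.0277), Alpk1 (0.0295) and Mllt6 (0.0522) were nearest to Cdkn1a, and 23 genes lay within 0.1 of it. Bax had 545 genes within 0.1 and Phlda3 had 220, so their patterns were common ones. Pmaip1, Eda2r and Trp53inp1 each had 1. The gene nearest to Pmaip1 was Ifitm1 (0.0879), that nearest to Eda2r was Oasl2 (0.0776) and that nearest to Trp53inp1 was Herc6 (0.0912). Ccng1 had none within 0.1, and Nt5dc3 was its nearest gene. With 4 group means behind each distance, likeness here is a description only.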

How the data were processed

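Raw counts per gene were deposited by the authors as 1 table without normalization, with 12 count columns that all matched a sample. Per the submitters' processing notes, HISAT2 2.0.5, featureCounts 1.6.0 and build GRCm39 were used; strand setting, treatment of reads with several hits and annotation release are not given in the sources used here. Per the labels' protocols, libraries were made from poly-T selected RNA with a kit that does not mark strand. Totals of 15494683 to 33263730 counts set the counting error of each level.

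Levels are CPM of library totals. Tests used R 4.3.3 and edgeR 4.0.16: filterByExpr by group, TMM scaling, quasi-likelihood F test and Benjamini-Hochberg adjustment over all genes tested, with a threshold of 0.05. The SE was derived from the F statistic. Each comparison used the 6 libraries of its groups, and the difference of OVA effects all 12. The code was tested on simulated counts. No pair of libraries agreed within counting noise (chi-square per degree of freedom 1.51 to 1.77), so none was merged.

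Alternatives were RLE factors, library totals, marker scalings, DESeq2 1.42.0, other filters, a 12-library fit, a replicate block and leaving out each library. Named are all members and 5 anchors (Trp53, Mdm4, Cdkn2a, Cdk1, Mki67). Others were picked from up to 3 called genes at each end of a list whose higher mean was 5 CPM or more. Nearest genes were picked from the 3 most like a member. Not every gene under these rules is named. Trp63 and Cdkn1c are named for their low counts, and marker genes were named with their values in view. The members and lists were chosen with earlier results of these data known. The promoter coordinates shown are of build GRCm38.p6. Coordinates on GRCm39, the build of the counts, are not given because the reference is of another build.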

Additional observations from a re-analysis of the deposited data

Results flagged for a closer look

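For 9 members the OVA effect differed between T cells and tumor cells by the test of that difference itself, in 1 edgeR fit over all 12 libraries. The values, T cells minus tumor cells on the log2 scale, were 2.09 for Trp53inp1, 1.86 for Ccng1, 1.09 for Zmat3, 0.68 for Phlda3, 0.49 for Mdm2, 0.18 for Bax and 0.13 for Cdkn1a. They were -0.48 for Bbc3 and -6.50 for Pmaip1. Among all genes tested 69% differed in this way, with a median of -0.16, so a flag of this kind is common in these data. Trp53inp1 and Ccng1 kept a higher value, and Pmaip1 and Bbc3 a lower one, when libraries were scaled to cell type markers. The Pmaip1 value rests on 9 counts in B16-F10 tumor cells.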

How the results depend on the processing

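Scaling was the choice that mattered most. With tumor libraries scaled to melanoma markers, 10 members were called higher and 0 lower; Mdm2 was at 1.07, Bax at 1.04, Ccng1 at 0.14, Zmat3 at 0.43, Phlda3 at 0.32 and Trp53inp1 at 0.0863. With T cell libraries scaled to T cell markers, 1 member was called lower, Bbc3 was at -0.00046 and Bax at -0.0687; on library totals 1 member was also lower, and under both scalings 7 were higher in place of 9. On library totals Bbc3 (adjusted p = 0.0835) and Bax (adjusted p = 0.0827) lost their calls, and Bbc3 lost it with DESeq2 (adjusted p = 0.0863). With both marker scalings at once, chosen after seeing the data, the difference of OVA effects had 2 members higher and 8 lower, and 330 genes higher against 16090 lower; Cdkn1a was at -1.16, Mdm2 at -0.80, Bax at -1.11, Zmat3 at -0.20 and Phlda3 at -0.61. Tumor cell Mdm2 was at 0.0060 with RLE factors and 0.0068 with DESeq2, neither called. Bax in T cells against tumor cells at the B16-F10 label was at -0.27 on library totals, called lower. With RLE factors it was at 0.0752 and called higher (edgeR adjusted p = 0.023). It was at -0.0613 without a filter and -0.0233 in the 12-library fit. With 1 library left out it lay between -0.0205 and 0.0364. It was below 0 without replicate 2 (-0.00167) or 3 of the B16-F10 tumor cells. The Eda2r difference of OVA effects, not called, was at 0.0274 with RLE factors, 0.0917 on library totals, 0.0242 with DESeq2, and between -0.128 and 0.102 with 1 library left out. Leaving out 1 library at a time gave 4 to 4 members higher and 4 to 6 lower in tumor cells, where Mdm2 (adjusted p = 0.0379) and Bax (adjusted p = 0.0184) were called lower without replicate 3 of the B16-F10 tumor cells, and 8 to 9 higher and 0 lower in T cells. Deviations of same-numbered samples correlated between -0.05 and 0.05 over 18562 genes, so no shared deviation was seen. Such values cannot show whether same-numbered samples came from the same tumor. With the replicate block, 13656, 7576, 14797, 14080 and 12723 genes were called in the tumor cell, T cell, B16-F10 label, OVA label and difference comparisons, and the members' calls were as without it, 4 higher and 4 lower, 9 and 0, 4 and 5, 8 and 2, and 7 and 2. Counts of 9 in Pmaip1 and 0 in Cdkn2a limit those ratios to the intervals and floor given.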
